A study of Mus musculus with 9 samples.

Results

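The 10 genes of transforming growth factor-beta (TGF-β) and bone morphogenetic protein (BMP) signaling described here are Tgfb1, Tgfb2, Tgfb3, Tgfbr1, Tgfbr2, Bmpr1a, Bmpr2, Eng, Smad3 and Smad7. They were taken by symbol from the 24411 genes of a bulk RNA-seq table, and all 10 were found. The table covers 3 YS lines, 3 FL lines and 3 BM lines, which are macrophages expanded from E9.5 yolk sac, E14.5 fetal liver and adult bone marrow of C57BL/6 mice. The cells of every group were grown in medium with fetal calf serum and 100 ng/mL recombinant human M-CSF, the growth factor of macrophages. Starting cells were pooled from several mice, and a line is the bulk culture of 1 dish or well, so the spread within a group is that between cultures and may not reflect the spread between animals. The values are TPM, a transcript level per length that is scaled to the same total in each library, and the number of reads behind them is unknown.

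TGF-β ligands are secreted in a latent complex and, once released, bind the type II receptor TGFBR2, which recruits and phosphorylates the type I receptor TGFBR1. The active receptor phosphorylates SMAD2 and SMAD3, which enter the nucleus with SMAD4, whereas BMP receptors act on SMAD1, SMAD5 and SMAD9. SMAD6 and SMAD7 are inhibitory members of the family. In macrophages TGF-β is known as a regulator of inflammatory gene expression, and in the brain as a signal that microglia depend on.

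The promoters of Tgfb1, the member with the highest level, and of Tgfbr2 and Smad3, the members called between groups below, are printed first, since they differ in base composition and in simple motifs. Each run holds 250 bases before and 50 bases after the start of the gene in RefSeq on GRCm38.p6, 5′ to 3′ on the strand of the gene. Capitals mark every match on either strand to the SMAD box CAGAC, the GC box GGGCGG and the ETS-type core GAGGAA bound by PU.1, a factor of the macrophage lineage. No match overlapped a match of another motif in these windows. Tgfb1 lies at chr7:25686752-25687051 on the plus strand, Tgfbr2 at chr9:116175314-116175613 on the minus strand and Smad3 at chr9:63757945-63758244 on the minus strand.
Tgfb1: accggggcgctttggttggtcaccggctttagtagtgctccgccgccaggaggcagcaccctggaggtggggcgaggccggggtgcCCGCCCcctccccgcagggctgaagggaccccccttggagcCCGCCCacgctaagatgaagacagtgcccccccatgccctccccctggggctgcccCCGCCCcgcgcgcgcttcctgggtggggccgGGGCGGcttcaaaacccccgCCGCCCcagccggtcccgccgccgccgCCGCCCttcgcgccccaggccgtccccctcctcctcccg
Tgfbr2: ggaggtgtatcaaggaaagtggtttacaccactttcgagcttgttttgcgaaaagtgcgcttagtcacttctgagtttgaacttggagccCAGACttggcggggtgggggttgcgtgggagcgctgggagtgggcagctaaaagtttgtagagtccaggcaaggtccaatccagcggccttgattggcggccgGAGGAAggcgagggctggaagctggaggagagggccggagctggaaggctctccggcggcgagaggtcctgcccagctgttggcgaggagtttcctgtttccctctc
Smad3: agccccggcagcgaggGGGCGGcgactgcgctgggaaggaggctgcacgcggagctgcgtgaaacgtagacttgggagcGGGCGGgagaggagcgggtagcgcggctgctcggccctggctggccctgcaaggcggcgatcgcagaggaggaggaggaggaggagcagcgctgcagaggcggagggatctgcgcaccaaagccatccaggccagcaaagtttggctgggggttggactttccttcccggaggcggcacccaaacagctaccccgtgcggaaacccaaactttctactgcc
The Tgfb1 window was 77% G or C with 6 GC boxes, the Smad3 window 67.7% with 2 GC boxes, and the Tgfbr2 window 59.0% with no GC box, 1 SMAD box and 1 ETS core. A SMAD box was found in 49.6%, a GC box in 35.7% and an ETS core in 28.3% of 32851 RefSeq promoter windows of the same length, whose median was 52.7% G or C. Windows were found for 8 of the 10 genes (9 windows), and among the genes not called Eng had 2 SMAD boxes and 1 ETS core and Bmpr1a had 4 GC boxes. Such matches describe the letters of these windows and do not show binding. Tgfb3 and Smad7 were not matched.

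All 11 markers of macrophages were at 1 TPM or more in every line, whereas fibroblast markers summed to 1.27 TPM or less in each line. Endothelial markers summed to between 30.11 and 56.04 TPM in YS lines, between 18.97 and 51.78 TPM in FL lines and between 0.22 and 3.20 TPM in BM lines, with Cldn5 and Emcn listed at 0 throughout and Tek at 0.04 TPM or less. Kdr and Tie1 gave most of the sum in YS and FL lines. Megakaryocyte markers, of which only Pf4 exceeded 1.46 TPM, summed to between 226.55 and 2123.56 TPM in YS lines, between 615.55 and 1729.81 TPM in FL lines and between 38.55 and 393.06 TPM in BM lines. Both sums were higher on average in the YS and FL lines, as were Tgfbr2 and Smad3, and their part in the differences below was not tested. BM line 2 stood apart from its group in hemoglobin: the gene Hba-a1 was at 214.99 TPM there and at 0.30 TPM in the other BM lines. Among 45 genes that were under 0.5 TPM in BM lines 1 and 3 and above 20 TPM in YS line 2, the median level in BM line 2 was 14.1% of that in YS line 2. These genes were picked with no limit on BM line 2, and no other line was examined in this way. The value alone does not show that BM line 2 is unusual or where its transcripts come from. Over all tested genes Pearson's r between BM lines was 0.975 to 0.985. Because of the hemoglobin, counts of called genes, and the differences of some but not all genes, are also given without BM line 2.

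In every group Tgfb1 had the highest level, and its lowest line lay above every line of the next gene, Tgfbr1. In YS and FL lines Tgfbr1 and Tgfbr2 came next, with overlapping ranges, and both lay above all other members. In BM lines Eng took the third place, with a range that overlapped that of Tgfbr2. Smad3 was the fourth in YS lines and the seventh in FL and BM lines, and its range overlapped that of its lower neighbour in each group. Tgfb2 and Tgfb3 ended the list in all groups.

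**Figure D1:**
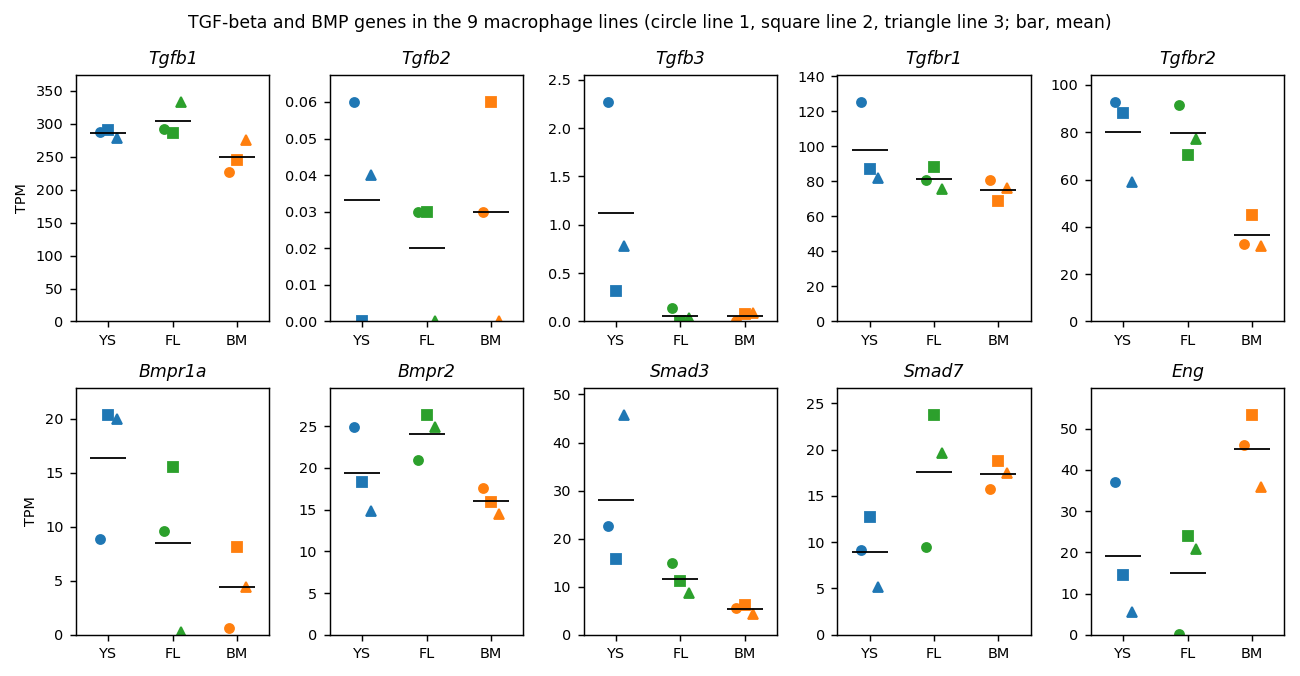
TPM (y axis, from 0, with its own scale in each panel) of the 10 genes in the 3 YS, 3 FL and 3 BM lines (x axis), with 1 point per line and a bar at the group mean. Tgfbr2 and Smad3 are lowest in all 3 BM lines, Eng is close to 0 in FL line 1, Bmpr1a is close to 0 in FL line 3 and BM line 1, and the Tgfb2 panel spans less than 0.1 TPM.

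Differences between groups were tested for the 8 members that reached 1 TPM in at least 3 of the 9 libraries, in 1 limma model over 11753 such genes on log2(TPM + 1), which makes the fold changes of low genes look smaller than they are. A call needed more than a 2-fold difference and an adjusted p, which sets the false discovery rate, under 0.1. SE is the standard error of a log2 difference in this model. Of the 8 members, 2 were called between YS and BM lines (Tgfbr2 and Smad3), against 12.8% of all tested genes, and 1 between FL and BM lines (Tgfbr2), against 10.3%. Each of these calls was higher in YS or FL lines, the direction of 7.57% of all tested genes between YS and BM lines and of 6.01% between FL and BM lines, whereas 5.22% and 4.30% were called lower. Between YS and FL lines 0 members were called by limma, 2 had an unadjusted p under 0.05, and 3.79% of all tested genes passed (1.95% above and 1.85% below FL lines). By the false discovery rate alone, 3 members passed between YS and BM lines and 4 between FL and BM lines, where 37.9% and 27.6% of all tested genes passed, and no member passed between YS and FL lines, where 12.8% of all genes did. Members whose 2 groups did not overlap numbered 6, 5 and 1 in the same order, against 49.0%, 49.5% and 26.1% of all tested genes. The median log2 difference of the 8 members was 0.30, 0.39 and 0.11, and that of all tested genes 0.11, 0.09 and 0.02. YS and FL lines were each set against the same BM lines, so their differences from BM lines are not independent. Without BM line 2 the same members were called, Tgfbr2 and Smad3 in YS lines and Tgfbr2 in FL lines.

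**Figure D2:**
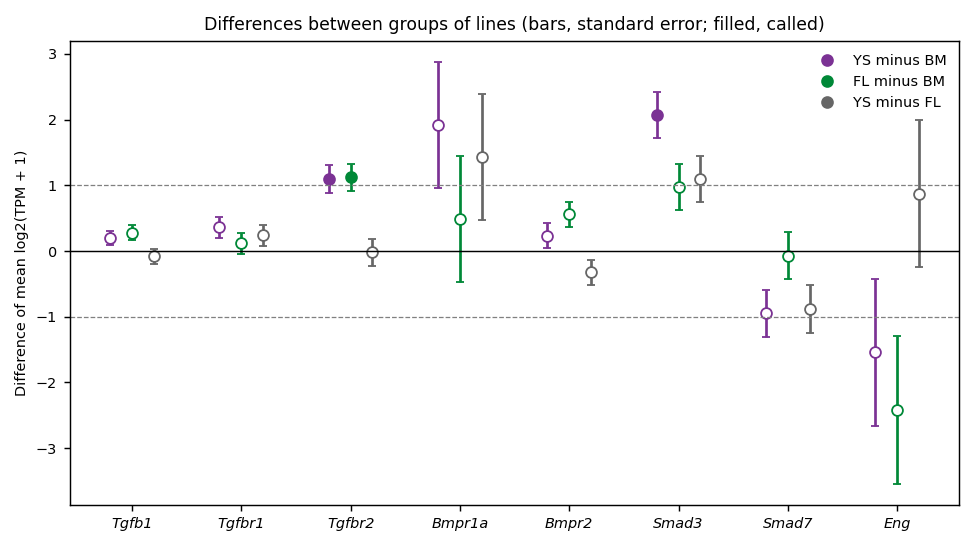
Difference of mean log2(TPM + 1) (y axis) of the 8 tested members (x axis) in the 3 comparisons, with the limma standard error as bars, filled points for called members and dashed lines at a 2-fold difference. Filled points are Tgfbr2 in both comparisons with BM lines and Smad3 between YS and BM lines, and the bars of Bmpr1a and Eng are the widest.

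Tgfb1, the ligand that macrophages are known to make, had 288.05, 291.09 and 278.59 TPM in the YS lines (here and below in the order of lines 1 to 3), 291.61, 286.29 and 333.09 TPM in the FL lines, and 227.27, 244.99 and 275.73 TPM in the BM lines. Every YS and FL line lay above every BM line, but the steps were small. The log2 difference from BM lines was 0.20 in YS lines (SE 0.11, limma adjusted p = 0.18) and 0.28 in FL lines (SE 0.11, limma adjusted p = 0.095, range over alternatives 0.076 to 0.30), far under 2-fold in both. In these bulk samples a smaller number of expressing cells and less RNA per cell cannot be told apart.

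The other TGF-β ligands were at low levels. Tgfb2 did not exceed 0.06 TPM in any line, and it was listed at 0 in 1 line of each group. Tgfb3 had 2.27, 0.31 and 0.78 TPM in the YS lines, 0.14, 0 and 0.04 TPM in the FL lines, and 0, 0.08 and 0.09 TPM in the BM lines. Each YS line was above each FL and BM line, yet only YS line 1 passed 1 TPM, so the gene was not tested. Tgfb3 overlaps Ttll5 on the opposite strand in GENCODE M21, and Ttll5 was at means of 8.14 TPM in YS, 6.27 TPM in FL and 7.33 TPM in BM lines. The libraries were made with a stranded kit, but the strand setting of the counting is not given in the sources used here, so reads of the 2 genes may have been mixed.

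The type II receptor gene Tgfbr2 was called higher in both groups of embryonic lines than in the BM lines. It had 92.82, 87.95 and 59.06 TPM in the YS lines, 91.57, 70.60 and 77.25 TPM in the FL lines, and 32.81, 44.84 and 31.75 TPM in the BM lines. The highest BM line, line 2, was below the lowest YS line, line 3. Against BM lines Tgfbr2 was 2.15-fold higher in YS lines (log2 difference 1.10, SE 0.21, limma adjusted p = 0.0074) and 2.17-fold higher in FL lines (1.12, SE 0.21, limma adjusted p = 0.0070). YS and FL lines had means of 79.9 ± 18.2 and 79.8 ± 10.7 TPM (SD, n = 3 lines each) and a log2 difference of -0.02. Both calls sit near the 2-fold threshold. Without YS line 1 the YS difference was 0.98 (limma adjusted p = 0.017, range over alternatives 0.0052 to 0.038). It was 0.98 with quantile normalization and 0.99 with median-of-ratios scaling, and the YS call was lost each time. The FL difference was 1.01 and 1.02 under these scalings and 1.02 without FL line 1, and was still called. Without BM line 2 the log2 differences were larger, at 1.26 for YS lines and 1.27 for FL lines.

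The type I receptor gene Tgfbr1 was not called in any comparison. It had 125.31, 87.09 and 81.99 TPM in the YS lines, 80.82, 88.24 and 75.64 TPM in the FL lines, and 80.55, 68.81 and 76.36 TPM in the BM lines. YS line 1 was the highest of the 9, all YS lines were above all BM lines, and FL lines overlapped both. The log2 difference from BM lines was 0.36 in YS lines (SE 0.16, limma adjusted p = 0.13) and 0.12 in FL lines (limma adjusted p = 0.67).

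The receptor pair was also compared within each line. The TPM of Tgfbr2 divided by that of Tgfbr1 was 0.741, 1.01 and 0.720 in YS lines, 1.13, 0.80 and 1.02 in FL lines and 0.407, 0.652 and 0.416 in BM lines. All BM ratios lay below all YS and FL ratios, with BM line 2 nearest to them. This ratio was chosen after its genes had been seen and was not tested.

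**Figure D3:**
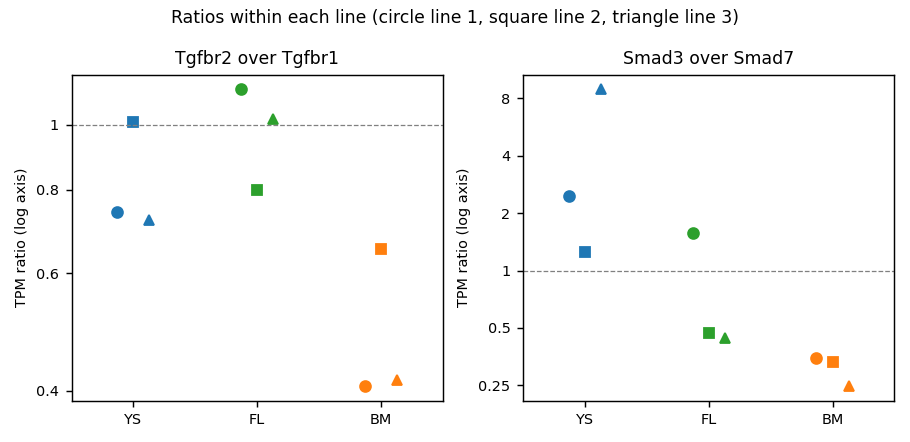
TPM ratio within each line (y axis, log scale) of Tgfbr2 over Tgfbr1 (left) and Smad3 over Smad7 (right) in the YS, FL and BM lines (x axis), 1 point per line, with a dashed line at a ratio of 1. All BM points lie below all YS and FL points in both panels, and Smad3 exceeds Smad7 in the 3 YS lines and FL line 1.

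Eng encodes endoglin, a co-receptor for TGF-β family ligands that is best known from endothelium. It had 37.07, 14.42 and 5.49 TPM in the YS lines, 0.14, 23.97 and 20.76 TPM in the FL lines, and 46.02, 53.26 and 35.95 TPM in the BM lines. The lowest BM line was above every FL line and below YS line 1. The means were 19.0 ± 16.3, 15.0 ± 12.9 and 45.1 ± 8.69 TPM (SD, n = 3 each). The log2 difference from BM lines was -1.54 in YS lines (SE 1.12, limma adjusted p = 0.33) and -2.42 in FL lines (SE 1.12, limma adjusted p = 0.17), and neither was called. The fit without FL line 1 called the first (limma adjusted p = 0.077, range over alternatives 0.077 to 0.60). The YS value was -2.19 without YS line 1 and -0.91 without YS line 3, and neither was called. FL line 1, near 0, set much of the FL value, which was -0.97 without it, -3.19 without FL line 2 and -3.09 without FL line 3, and none of these was called (limma adjusted p from 0.11 to 0.35 over alternatives). Endothelial markers had their lowest sums in BM lines, where Eng was highest on average, and a link of Eng to these markers was not tested. Eng overlaps Fpgs on the opposite strand, and Fpgs was at means of 19.4, 16.2 and 15.5 TPM in YS, FL and BM lines.

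Of the BMP receptor genes, Bmpr1a varied widely between lines of 1 group. Bmpr1a, which encodes a type I BMP receptor, had 8.92, 20.34 and 19.99 TPM in the YS lines, 9.61, 15.56 and 0.30 TPM in the FL lines, and 0.64, 8.16 and 4.46 TPM in the BM lines. Each YS line was above each BM line, whereas FL lines spanned nearly the whole range from BM to YS lines. The log2 difference was 1.92 between YS and BM lines (SE 0.96, limma adjusted p = 0.16), and it was not called. It was called, with limma adjusted p = 0.059, in the fit without FL line 3, which left the difference itself at 1.92 (range over alternatives 0.059 to 0.43). Without BM line 2, the highest of its group for this gene, the difference was 2.46, and without BM line 1, the lowest, it was 1.22, and neither was called (limma adjusted p = 0.14 and 0.43). Bmpr2, the type II BMP receptor, was steadier. It had 24.87, 18.31 and 14.83 TPM in the YS lines, 20.96, 26.29 and 24.84 TPM in the FL lines, and 17.57, 15.96 and 14.43 TPM in the BM lines. All FL lines were above all BM lines, by a log2 difference of 0.56 that passed the false discovery rate (limma adjusted p = 0.072, range over alternatives 0.017 to 0.22) but not the 2-fold threshold.

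Among the signal transducers, Smad3 had the largest called difference of the 10 genes. It had 22.58, 15.82 and 45.67 TPM in the YS lines, 14.89, 11.20 and 8.68 TPM in the FL lines, and 5.51, 6.22 and 4.35 TPM in the BM lines. No range overlapped another: the lowest YS line was above the highest FL line, and the lowest FL line above the highest BM line. Smad3 was 4.19-fold higher in YS than in BM lines (log2 difference 2.07, SE 0.35, limma adjusted p = 0.0054). The difference was 1.66 without YS line 3, the highest line (limma adjusted p = 0.0071, range over alternatives 0.0049 to 0.029), and 2.16 without BM line 2. FL lines were 1.95-fold above BM lines (0.97, SE 0.35, limma adjusted p = 0.092, range over alternatives 0.017 to 0.25), which passed the false discovery rate and missed the 2-fold threshold. That miss depends on the pseudocount: with 0.1 the difference was 1.08 and was called (limma adjusted p = 0.079). YS lines differed from FL lines by 1.10 (SE 0.35, limma adjusted p = 0.10), which was not called with all lines. That difference was called without YS line 2 (1.43) and without FL line 1 (1.28), and it fell to 0.69 without YS line 3 and to 0.93 without FL line 3, with limma adjusted p from 0.052 to 0.26 over alternatives.

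Smad7, a SMAD that inhibits TGF-β receptors and is itself induced by the pathway, was lowest on average in YS lines. It had 9.19, 12.68 and 5.12 TPM in the YS lines, 9.49, 23.72 and 19.66 TPM in the FL lines, and 15.80, 18.81 and 17.51 TPM in the BM lines. Every YS line was below every BM line, and FL line 1 lay among the YS lines. The log2 difference between YS and BM lines was -0.95 (SE 0.36, limma adjusted p = 0.083), a 1.93-fold lower level that passed the false discovery rate and missed the 2-fold threshold. Without YS line 2 it was -1.21 and was called, and under both other scalings it was -1.06 and was called. With a pseudocount of 0.1 it was -1.03 and was called as well (limma adjusted p = 0.084). The false discovery rate was no longer passed without YS line 1 (-1.0), YS line 3 (-0.63, where the limma adjusted p reached 0.20), BM line 1 (-1.01), BM line 2 (-0.89) or BM line 3 (-0.94), and the adjusted p ranged from 0.042 to 0.20 over alternatives. With no filter the rate was not passed either (limma adjusted p = 0.13), and without FL line 3 the limma adjusted p was 0.1. YS lines differed from FL lines by -0.88 (limma adjusted p = 0.17), which was called without FL line 1, at -1.25.

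The TPM of Smad3 divided by that of Smad7 was 2.46, 1.25 and 8.92 in YS lines, 1.57, 0.472 and 0.442 in FL lines and 0.349, 0.331 and 0.248 in BM lines. BM lines were lowest in this ratio, and FL line 1 was within the range of the YS lines. The pair was chosen after its values were seen, and the ratio was not tested.

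**Figure D4:**
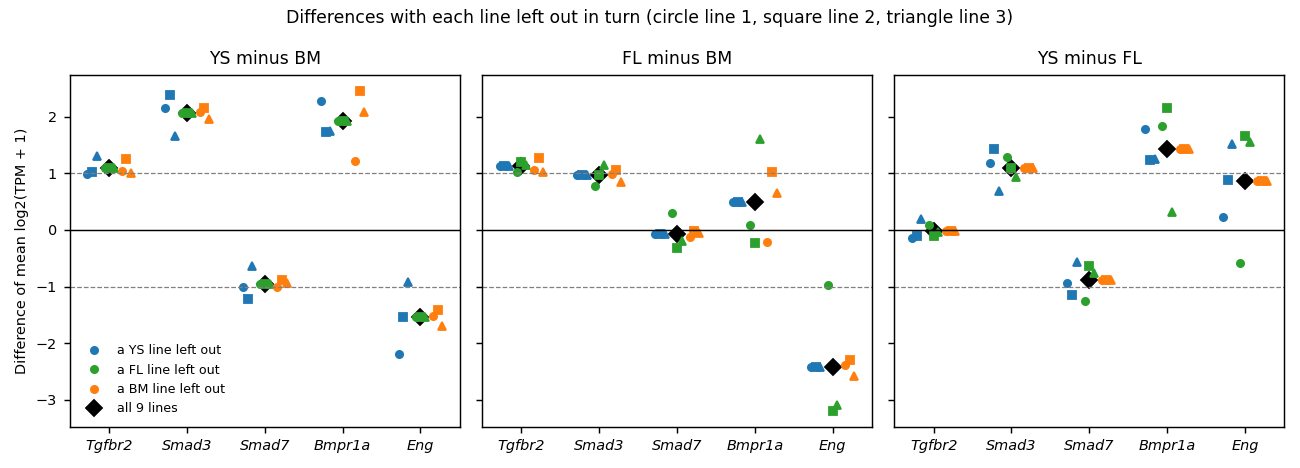
Difference of mean log2(TPM + 1) (y axis) of 5 members (x axis) with all 9 lines (diamonds) and with each line left out in turn (small points, colored by the group of the line left out), with dashed lines at a 2-fold difference. Tgfbr2 and Smad3 stay above 0 in both comparisons with BM lines, whereas Bmpr1a crosses 0 between FL and BM lines and Eng crosses 0 between YS and FL lines when FL line 1 is left out.

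The genes whose log2(TPM + 1) followed a called member most closely over the 9 libraries were named as a description. For Smad3 they were Hdac1 (Pearson's r = 0.993), Dnaja1 (0.987) and I830077J02Rik (0.986). Hdac1, a histone deacetylase, had means of 158, 126 and 103 TPM in YS, FL and BM lines. For Tgfbr2 they were Gpr65 (r = 0.991), Cnnm4 (0.989) and Aif1 (0.984). Gpr65, a proton-sensing receptor, had means of 66.0, 63.4 and 15.5 TPM, and Aif1, which encodes the macrophage protein IBA1, 120, 113 and 13.4 TPM. The 9 points share their libraries and fall into 3 groups.

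A list of 95 other genes of the pathway was set beside the members. All were in the table and 45 passed the filter. Between YS and BM lines 10 of the 45 were called (6 above and 4 below BM lines), against 12.8% of all tested genes, with a median log2 difference of -0.16. Between FL and BM lines 10 were called, 7 higher and 3 lower in FL lines, against 10.3% of all tested genes, with a median of 0.12. Between YS and FL lines 2 were called, both lower in YS lines, against 3.79% of all tested genes, with a median of -0.14. Without BM line 2 the counts were 7, 10 and 2. The share of all tested genes called in that fit is not given, so the change is not a result about the pathway. Of all called genes between YS and BM lines, 59.2% were higher in YS lines, against 48.7% with quantile normalization and 50.7% with median-of-ratios scaling. Among called pathway genes 3 of 7 were higher with quantile normalization and 6 of 10 with median-of-ratios scaling, the latter as without rescaling. The median over all tested genes moved from 0.11 to -0.01 and to 0.00 under these scalings.

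Upstream of the receptors, Nrros had the clearest difference among genes that hold or release latent ligand. Nrros encodes a membrane protein that tethers latent TGF-β1 on myeloid cells. It had 268.32, 212.63 and 166.62 TPM in the YS lines, 222.68, 261.47 and 218.47 TPM in the FL lines, and 50.57, 77.45 and 59.36 TPM in the BM lines. All YS and FL lines were above all BM lines. The gene was 3.41-fold higher in YS lines (log2 difference 1.77, SE 0.20, limma adjusted p = 0.0015) and 3.75-fold higher in FL lines (1.91, SE 0.20, limma adjusted p = 0.00091). Ltbp2, a matrix protein of the latent TGF-β binding family, was called higher in YS lines (1.53, limma adjusted p = 0.085), but 18.61 TPM in YS line 1 stood against 3.23 and 2.87 TPM in the others. Without YS line 1 its difference was 0.77 and was not called, and the call was lost in 11 of 19 alternatives. Of the 4 tested genes of this role, Itgav and Furin were lower than in BM lines, without overlap. The log2 differences of Itgav were -0.6 in YS lines (limma adjusted p = 0.014) and -0.76 in FL lines (limma adjusted p = 0.0064). Those of Furin were -0.62 (limma adjusted p = 0.038) and -0.9 (limma adjusted p = 0.011). All passed the false discovery rate and missed the 2-fold threshold. None of the 5 tested other receptors and neither of the tested other ligands was called in any of the 3 comparisons.

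Among inhibitors, Twsg1 and Bambi went in opposite directions. Twsg1, a secreted BMP-binding protein, had 21.74, 25.02 and 24.78 TPM in the YS lines, 32.95, 24.64 and 34.99 TPM in the FL lines, and 95.56, 63.45 and 78.79 TPM in the BM lines. It was called lower than in BM lines in both comparisons, with log2 differences of -1.67 in YS lines (limma adjusted p = 0.0013) and -1.33 in FL lines (limma adjusted p = 0.0021). Bambi, a pseudoreceptor that lacks a kinase domain, had 6.14, 1.16 and 1.00 TPM in the YS lines, 7.29, 4.07 and 13.77 TPM in the FL lines, and 0.03, 0.41 and 0.03 TPM in the BM lines. Its log2 difference was 2.90 between FL and BM lines (SE 0.54, limma adjusted p = 0.0075). The size depends on the pseudocount, at 5.2 with 0.1 and 1.5 with 4, and the gene was called in both.

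Of the 6 other Smads, all of which were tested, 2 were called higher in YS lines and 3 higher in FL lines than in BM lines, and none was called lower. Of all tested genes 7.57% and 6.01% were called higher in these comparisons, and the Smads were singled out after their values were seen. Smad1, a transducer of BMP receptors, had 28.74, 16.15 and 19.75 TPM in the YS lines, 20.79, 23.28 and 19.83 TPM in the FL lines, and 6.67, 8.39 and 6.70 TPM in the BM lines. Its log2 difference from BM lines was 1.42 in YS lines (limma adjusted p = 0.0030) and 1.44 in FL lines (limma adjusted p = 0.0026). Smad9, of the same branch, was called in both as well, at means of 2.39, 2.92 and 0.583 TPM in YS, FL and BM lines. Its call in YS lines was lost without YS line 2 and with quantile normalization, where the difference was 0.88 each time. With a pseudocount of 4 both calls were lost, at 0.47 in YS lines and 0.58 in FL lines. Smad5, also of this branch, was called in neither, with log2 differences of 0.51 in YS lines (limma adjusted p = 0.078) and 0.36 in FL lines (limma adjusted p = 0.22). Smad6, an inhibitory SMAD, was called in FL lines (1.18, limma adjusted p = 0.0062), and its difference of 0.94 in YS lines missed the 2-fold threshold. Without YS line 3 that difference was 1.10 and was called, as it was without BM line 2, at 1.03. Smad4, the shared partner, had a log2 difference of -0.42 between YS and BM lines (limma adjusted p = 0.019) that was under 2-fold, and Smad2 differed from BM lines by -0.21 in YS lines and 0.17 in FL lines without passing the test.

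Among regulators of SMAD turnover, Ldlrad4, whose product limits SMAD2 and SMAD3 phosphorylation, was called higher in both embryonic groups. It had 7.14, 13.09 and 10.74 TPM in the YS lines, 13.92, 19.92 and 9.85 TPM in the FL lines, and 0.24, 4.68 and 3.91 TPM in the BM lines. The log2 difference was 1.76 for YS lines (limma adjusted p = 0.044) and 2.20 for FL lines (limma adjusted p = 0.024), and the YS call was lost without YS line 2, at 1.59. Without BM line 1, the lowest, the differences fell to 1.06 and 1.51 and were still called. Smurf1, a ubiquitin ligase for SMAD proteins and receptors, had 10.25, 13.66 and 15.39 TPM in the YS lines and 32.46, 27.60 and 32.85 TPM in the BM lines (log2 difference -1.19, limma adjusted p = 0.0023). Zfyve9, which encodes the SMAD anchor SARA, was listed at 0 in all FL lines and had 3.18, 0.52 and 1.18 TPM in the BM lines. Its call between FL and BM lines (limma adjusted p = 0.067) was lost without each FL line in turn, although these are all at 0. Pmepa1, a TGF-β-induced inhibitor of the pathway, had 0.16, 0.69 and 0.81 TPM in the YS lines, 12.26, 17.29 and 2.16 TPM in the FL lines, and 2.21, 5.50 and 5.58 TPM in the BM lines. It was lowest in YS lines, with log2 differences of -1.76 from BM lines (limma adjusted p = 0.063) and -2.58 from FL lines (limma adjusted p = 0.053). The first call was lost without YS line 1, YS line 2, BM line 2 or BM line 3, with values between -1.83 and -1.56. It was also lost with a pseudocount of 4 (-0.86), with no filter and at a false discovery rate under 0.05. The second call was lost without FL line 2, at -2.09, in the fit of only the 6 libraries compared and at that stricter rate. Without FL line 3 the second was -3.35.

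Of the 9 tested response genes, 2 were called between FL and BM lines (Tgfbi and Id1) and 1 between YS and FL lines (Id1). None was called between YS and BM lines. The shares of all tested genes called were 10.3%, 3.79% and 12.8% in this order. Between YS and BM lines Runx1 (log2 difference 0.82, limma adjusted p = 0.0037) and Klf10 (-0.7, limma adjusted p = 0.016) passed the false discovery rate and missed the 2-fold threshold. That rate alone was passed by 37.9% of all tested genes there. Tgfbi, a matrix protein named for its induction by TGF-β, had 238.59, 563.47 and 637.89 TPM in the YS lines, 14.89, 332.56 and 110.75 TPM in the FL lines, and 1328.07, 1054.48 and 966.89 TPM in the BM lines. All BM lines were above all other lines. The log2 difference between FL and BM lines was -3.72 (SE 0.93, limma adjusted p = 0.025), with -2.52 without FL line 1 and -4.72 without FL line 2, both called. That between YS and BM lines, -1.32, was not called (limma adjusted p = 0.31). Id1, a known target of BMP signaling, had 159.25, 237.31 and 184.30 TPM in the YS lines, 435.74, 678.71 and 566.82 TPM in the FL lines, and 296.08, 280.11 and 197.28 TPM in the BM lines. Every FL line was above every other line, with log2 differences of 1.12 from BM lines (limma adjusted p = 0.010) and, for YS against FL lines, -1.52 (limma adjusted p = 0.016). Id2 and Id3 were not called in any comparison. Between FL and BM lines their log2 differences were 0.26 (limma adjusted p = 0.47) and 0.07 (limma adjusted p = 0.93).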

How the data were processed

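RNA was sequenced from 3 YS, 3 FL and 3 BM lines, as poly(A)-selected, stranded libraries with 1 library per line. The authors deposited 1 table of TPM for 24411 gene symbols. Trim Galore 0.6.6, STAR 2.7.9a and RSEM 1.3.3 are named in the submitters' processing notes, and the genome build and strand setting are not given in the sources used here. TPM keeps no depth, so counting error is unknown. The 11753 genes that reached 1 TPM in 3 or more libraries were tested on log2(TPM + 1) with limma 3.58.1 in R 4.3.3 (all 9 libraries, variance trend, Benjamini-Hochberg within a comparison). Calls needed more than a 2-fold difference and an adjusted p under 0.1. The fit was tested on simulated data. The members and lists were chosen with earlier results of these data known. All members were named, with the 3 highest and 3 lowest called, non-overlapping pathway genes per comparison and the 3 genes most correlated with a called member. Smad1, Smad2, Smad4, Smad5, Smad6, Smad9, Itgav, Furin, Id2, Id3, Runx1 and Klf10 were named after their values were seen. Alternatives changed pseudocount, filter, scaling, variance trend, replicate block, libraries and thresholds. Promoters came from RefSeq (GRCm38.p6) and overlaps from GENCODE M21.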

Additional observations from a re-analysis of the deposited data

How the results depend on the processing

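Of 24 differences of tested members, 11 kept their direction and their status as called or not called in all 20 alternatives. Among these only Smad3 between YS and BM lines (1.66 to 2.39) and Tgfbr2 between FL and BM lines (1.01 to 1.27) were called. The rest of the 11 stayed not called. Members called between YS and BM lines, 2 in the report, ranged from 1 to 3 with 1 line left out, and 1 was called without YS line 1. Between FL and BM lines 1 became 2 with a pseudocount of 0.1 and 4 with no fold threshold. Between YS and FL lines 0 became 1 with a filter at 5 TPM or quantile normalization, and ranged from 0 to 2 with 1 line left out (1 without YS line 2, 2 without FL line 1). For the pathway list, 10 called genes between YS and BM lines became 5 with a pseudocount of 4, 6 with no filter, 6 at a false discovery rate under 0.05 and 20 with no fold threshold, and ranged from 6 to 11 with 1 line left out (6 without YS line 1 or BM line 3). Between FL and BM lines 10 became 16 with no fold threshold, and between YS and FL lines 2 became 1 in the fit of only the 6 libraries compared and 1 at a false discovery rate under 0.05. Directions turned, in differences that were not called, for Tgfbr2 between YS and FL lines (-0.14 to 0.19 with 1 line left out; 0.19 without YS line 3, 0.09 without FL line 1), Bmpr1a between FL and BM lines (-0.23 to 1.61; -0.23 without FL line 2, -0.21 without BM line 1), Smad7 between FL and BM lines (-0.32 to 0.30; 0.30 without FL line 1) and Eng between YS and FL lines (-0.58 to 1.65; -0.58 without FL line 1). The cause was not tested. Shares of all tested genes called are not given for these alternatives, so changed counts are not results about the members or the list.

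Lines share numbers across groups. For same-numbered lines, the deviations of each gene from its group mean had Pearson's r between -0.118 and 0.088. The number was therefore not taken as a pairing. With the replicate block 2, 1 and 0 members were called between YS and BM, FL and BM, and YS and FL lines. In the same order 8, 9 and 2 pathway genes were called, and the share of all tested genes called with the block is not given. The deviations of a line mostly correlated best with those of a line of another number. The exceptions were YS line 2 with BM line 2 (r = 0.088) and with FL line 2 (r = 0.079). Depth is unknown, so low values such as those of Tgfb2 and Tgfb3 have no counting error.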
